A study of Danio rerio with 6 samples.

Results

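Maternal oocyte and egg transcripts were followed here in early gastrula zebrafish embryos that had received mRNA of Mcpip1. The set comprised every gene of the zp2 and zp3 families of egg coat proteins, found by symbol, and a list of genes known from oocytes, eggs and germ cells. It came to 47 of the 32057 genes of the count files. The zp families gave 16 genes, 5 of zp2 and 11 of zp3, and the 33 listed names gave the other 31. *nobox* had no identifier under that name in the name table used. *zorba* is a synonym of *cpeb1b* and fell on the same identifier. *rbpms2a* and *rbpms2b* were both listed as RBPMS2, so the pair is given by identifier, ENSDARG00000045930 and ENSDARG00000079578, without saying which is a or b.

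Every library came from viable, pooled AB/TL embryos at 6 h post fertilization (hpf), the shield stage, that had been injected into the yolk at the 1-cell stage. In the Mcpip1 WT group the injected mRNA encoded zebrafish Mcpip1, an RNase that cleaves stem-loops in mRNA and is the product of *zc3h12a*. In the Mcpip1 DN group it encoded the protein with a conserved aspartate of the RNase domain replaced, D112N. The paper takes this form as catalytically inactive, citing earlier work on mutation of the catalytic center. Both mRNAs carried a P2A-mTurquoise reporter, and each group had 3 libraries. No library of uninjected embryos was analysed here, so the comparison is of active against inactive Mcpip1. Both groups share the injection of *zc3h12a* mRNA. Reads on it were not equal between the groups, so activity and amount cannot be told apart. The labels do not say whether the pools came from separate clutches, and p-values measure the spread between these pools, which may in part be technical.

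A zebrafish egg is laid with mRNA and protein that the oocyte made in the ovary. These maternal mRNAs run the first cell cycles and set up the germ plasm and the dorsal side, and they are cleared as the zygotic genome takes over. Oocyte mRNAs are held by RNA-binding proteins that keep them stable or untranslated, and germ plasm mRNAs are protected in the few primordial germ cells while the soma degrades them. The egg coat is built in the ovary, before the egg is laid.

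Reads on genes numbered between 22581287 and 24662219 in Mcpip1 WT libraries and between 17686041 and 23944732 in Mcpip1 DN libraries. Of all genes, 16126 passed a filter on low counts and were tested. Reads on *zc3h12a*, which cannot be split into injected and endogenous mRNA, gave normalized counts of 170240, 22302 and 22767 in Mcpip1 WT libraries 1, 2 and 3, against 36491, 16111 and 7907 in Mcpip1 DN libraries 1, 2 and 3. Normalized counts are reads scaled so that all 6 libraries have one common effective size. Mcpip1 WT library 1 therefore stood far above the other 5, which overlapped between the groups. Differences are log2 fold changes of Mcpip1 WT over Mcpip1 DN from edgeR's quasi-likelihood test. A gene was called at the threshold of the study's methods, a fold change over 1.5 together with an unadjusted p under 0.05. By this threshold *zc3h12a* itself was called higher in Mcpip1 WT. Its log2 fold change was 1.83 ± 0.78 (SE), with unadjusted p = 0.0391 by edgeR's quasi-likelihood test. At a Benjamini-Hochberg adjusted p under 0.05, 0 of the 16126 genes were called (0%), 356 had an unadjusted p under 0.05, and no member passed.

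The members were readily counted at this stage, though their reads cannot be split into maternal mRNA and mRNA made by the embryo. All 47 had reads in every library and all 47 passed the filter. Together they held 0.473%, 0.408% and 0.552% of the reads on genes in Mcpip1 WT libraries 1, 2 and 3. In Mcpip1 DN libraries 1, 2 and 3 the share was 0.449%, 0.474% and 0.441%. The 95% Wilson intervals, which cover counting error only, were 0.470% to 0.476%, 0.405% to 0.410% and 0.549% to 0.555% in Mcpip1 WT, and 0.446% to 0.452%, 0.471% to 0.477% and 0.438% to 0.444% in Mcpip1 DN. Mcpip1 WT thus held both the highest and the lowest share, and the Mcpip1 DN libraries lay between them. The shares rest in large part on 1 gene, *ybx1*. It had 34419, 44041 and 27636 reads in the Mcpip1 WT pools, where the members together had 106802, 100573 and 126645. In the Mcpip1 DN pools it had 36619, 36428 and 21003 reads, where the members together had 79392, 113495 and 89561.

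Between the groups, 1 of the 47 members was called higher in Mcpip1 WT, *zar1l*, and 0 were called lower. Over all genes tested, 0.874% were called higher and 1.27% lower. The fold change was above 0 for 31 members and below 0 for 16, with a median of 0.23, against 0.01 over all genes tested (30 above and 17 below with DESeq2's size factors). It ran from -0.64 for *figla* to 0.86 for *zp3d.2*. Without Mcpip1 WT library 3 the median was -0.04, with 22 members above 0 and 25 below. The 3 libraries of one group were all above the 3 of the other for *zar1l*, higher in Mcpip1 WT (3.97% of all genes tested), and for *zp3a.1*, lower in Mcpip1 WT (4.08% of all genes tested). In bulk RNA, fewer cells that hold a transcript and less of it per cell cannot be told apart. The RNA was poly(A)-selected, so a difference in poly(A) tail and one in amount cannot be told apart either.

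These libraries limited what could be resolved for a single member. The standard error had a median of 0.38 on the log2 scale and ran from 0.24 to 0.88. The 95% interval of the difference crossed 0 for 46 members. For 18 members it lay within 2-fold both ways, for 25 it allowed a rise in Mcpip1 WT of more than 2-fold and for 8 a fall of more than 2-fold. The standard deviation (SD) of log2 values within groups had a median of 0.564 over the members and 0.566 over all genes tested.

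**Figure D1:**
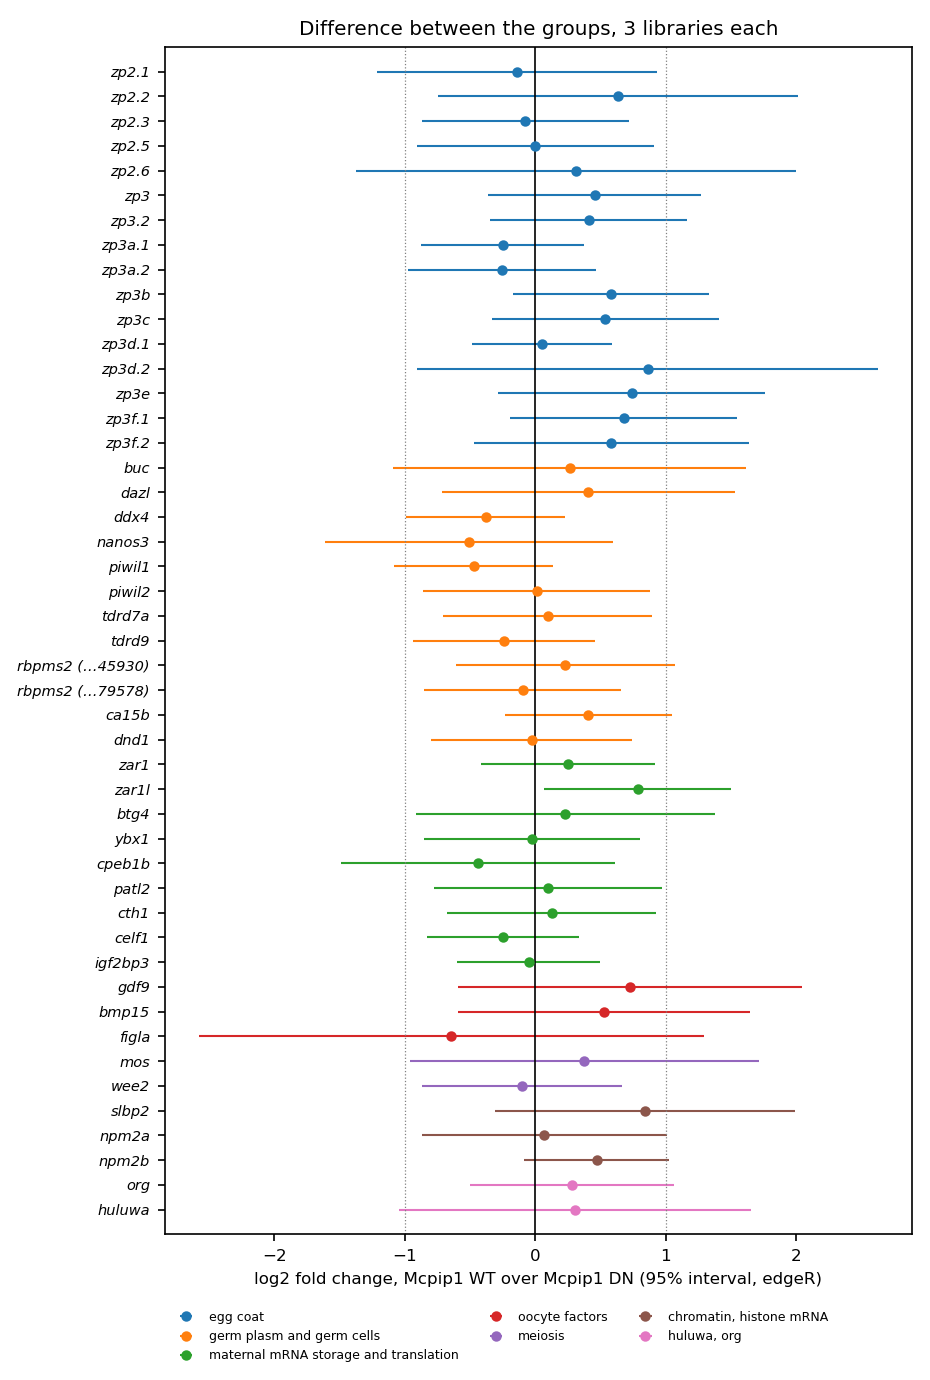
Log2 fold change of each of the 47 members, Mcpip1 WT over Mcpip1 DN (x axis), with its 95% interval from the edgeR fit over 3 libraries a group; colours mark the roles, the solid line is 0 and the dotted lines are 2-fold. The interval of *zar1l* is the only one of the 47 that does not cross 0, and the estimates run from -0.64 (*figla*) to 0.86 (*zp3d.2*).

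The egg coat genes encode zona pellucida glycoproteins, which the growing oocyte lays down as the envelope that becomes the chorion. None of the 16 was called in either direction. The fold change was above 0 for 12 and below 0 for 4, with a median of 0.43. With DESeq2's size factors it was above 0 for 11 and below 0 for 5, since *zp2.5* lay at 0 and changed sign. The member with the smallest p was *zp3f.1*, with 1919, 843 and 841 reads in Mcpip1 WT libraries 1, 2 and 3, against 663, 729 and 614 in Mcpip1 DN libraries 1, 2 and 3. Its normalized counts were 1946, 863 and 695 in the Mcpip1 WT pools, against 913, 674 and 602 in the Mcpip1 DN pools. One Mcpip1 WT library was high and the other 2 lay within the range of Mcpip1 DN. It had a fold change of 0.68 ± 0.40 (SE), with unadjusted p = 0.115 by edgeR's quasi-likelihood test. The fold change was 0.096 without Mcpip1 WT library 1, its highest, and 0.93 without Mcpip1 WT library 3.

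Mcpip1 WT library 1, named after its values were seen, was high for much of the family. Each of the 16 egg coat genes was above its own 6-library mean there, and 10 had their highest value there. Of all genes tested, 18.2% were highest in that library, and the share above their mean was not worked out. On the log2 scale the margin over the mean was small for *zp3a.2* (0.008), *zp3a.1* (0.02), *zp3d.1* (0.05) and *zp2.3* (0.05). The other 6 egg coat genes were highest in Mcpip1 DN, 4 of them in library 1 and 2 in library 2. Over all genes tested, 17.7% were highest in Mcpip1 DN library 1 and 12.9% in Mcpip1 DN library 2. No egg coat gene was highest in Mcpip1 WT library 2 or 3 (17.4% and 15.6% of all genes tested). At the low end, 7 were lowest in Mcpip1 DN library 3 (16% of all genes tested) and 5 in Mcpip1 WT library 3 (14%). The summed normalized counts of the family were 19760, 12110 and 11090 in Mcpip1 WT libraries 1, 2 and 3, against 13970, 11170 and 9190 in Mcpip1 DN libraries 1, 2 and 3. The sums of Mcpip1 WT libraries 2 and 3 lay within the range of Mcpip1 DN.

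Several zp3 genes made the excess of that library plain. The normalized counts of *zp3b* were 3034, 1508 and 1186 in Mcpip1 WT libraries 1, 2 and 3, against 1340, 1267 and 1222.5 in Mcpip1 DN. For *zp3e* they were 1708.5, 747 and 535 in the Mcpip1 WT pools, against 898, 522 and 374 in the Mcpip1 DN pools. For *zp3* they were 2959.7, 1248 and 1263 in the Mcpip1 WT pools, against 1756, 1213 and 1024 in the Mcpip1 DN pools. In all 3 genes Mcpip1 WT library 1 was the highest of the 6. The other 2 Mcpip1 WT libraries lay within the range of Mcpip1 DN for *zp3e* and *zp3*, and just above and just below it for *zp3b*. *zp3d.2*, with few reads, had the largest estimate of all members, 0.86 ± 0.80 (SE), from normalized counts of 129.8, 31.7 and 55.3 in the Mcpip1 WT pools, against 51.0, 19.4 and 49.1 in the Mcpip1 DN pools. Its Mcpip1 DN values fell around those of Mcpip1 WT libraries 2 and 3. Without Mcpip1 WT library 1 the estimate was 0.14 for *zp3d.2*, 0.10 for *zp3e*, 0.08 for *zp3b* and -0.08 for *zp3*. These genes were highest in that library, so a lower estimate without it was bound to follow. Without Mcpip1 WT library 3 the estimate was 1.001 for *zp3d.2*, 1.02 for *zp3e*, 0.82 for *zp3b* and 0.64 for *zp3*.

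Without Mcpip1 WT library 1 the median over the egg coat was 0.06, with 9 genes above 0 and 7 below. Without Mcpip1 DN library 3 it was 0.14. It was 0.55 without Mcpip1 WT library 2 and 0.51 without Mcpip1 WT library 3. Leaving out Mcpip1 DN library 1 gave 0.62, and leaving out Mcpip1 DN library 2 gave 0.34. Mcpip1 WT library 1 was also the library with the most *zc3h12a* mRNA, and the mean deviation of yolk syncytial layer markers was 0.83 there and 0.81 in Mcpip1 WT library 2. The part of either in the egg coat values was not tested.

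The estimates of the family did not all point one way. The pair *zp3a.1* and *zp3a.2* and the genes *zp2.1* and *zp2.3* had estimates below 0. Reads on *zp3a.1* numbered 640, 545 and 670 in Mcpip1 WT libraries 1, 2 and 3, against 542, 717 and 699 in Mcpip1 DN libraries 1, 2 and 3. Its normalized counts were 649, 558 and 553 in the Mcpip1 WT pools, against 746, 663 and 686 in the Mcpip1 DN pools, so that all 3 Mcpip1 WT libraries were lower. The difference was small, -0.25 ± 0.29 (SE), and missed the threshold with unadjusted p = 0.397 by edgeR's quasi-likelihood test. *zp3d.1* varied least of all members, with a highest value 1.30 times its lowest, and its fold change was 0.05 with a 95% interval of -0.48 to 0.58. Of the genes not given by library, *zp3.2* (0.41), *zp3c* (0.54), *zp3f.2* (0.58) and *zp2.6* (0.31) had estimates above 0, and without Mcpip1 WT library 1 the estimates were 0.25 for *zp3.2*, 0.14 for *zp3c*, 0.22 for *zp3f.2* and -0.00066 for *zp2.6*. *zp2.2* varied most, with a highest value 7.58 times its lowest. Its normalized counts were 647, 471 and 170.1 in the Mcpip1 WT pools, against 511, 235 and 85.4 in the Mcpip1 DN pools, with the lowest value of each group in library 3. Its estimate of 0.63 was 0.21 without Mcpip1 WT library 1.

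All 16 egg coat genes were found by symbol in the RefSeq annotation of assembly GRCz12tu, where many stand side by side. The 5 zp2 genes stood in one row, broken by 1 other protein-coding gene between *zp2.3* and *zp2.6*. Of the zp3 genes, 8 formed 4 pairs of direct neighbours, *zp3* with *zp3.2*, *zp3a.1* with *zp3a.2*, *zp3d.1* with *zp3d.2* and *zp3f.1* with *zp3f.2*. Their likeness in sequence was not measured here. If reads of one gene also match a relative, the mapping and the counting decide which gene they fall on or whether they are left out. Values of single zp genes are uncertain to that extent. Markers of the ovary's follicle cells, the cells that surround the growing oocyte, were at or near 0 reads. *cyp19a1a*, the aromatase of the ovary, had 0 reads in all 6 libraries, *amh* and *fshr* had at most 1 and *lhcgr* at most 14. *gsdf* had 33, 0 and 4 reads in Mcpip1 WT libraries 1, 2 and 3, against 0, 10 and 0 in Mcpip1 DN libraries 1, 2 and 3. All 5 markers together came to 34, 14 and 9 reads in the Mcpip1 WT pools, against 2, 11 and 1 in the Mcpip1 DN pools. The sum was thus highest in Mcpip1 WT library 1, where the egg coat was highest, and its part in the egg coat values was not tested.

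**Figure D2:**
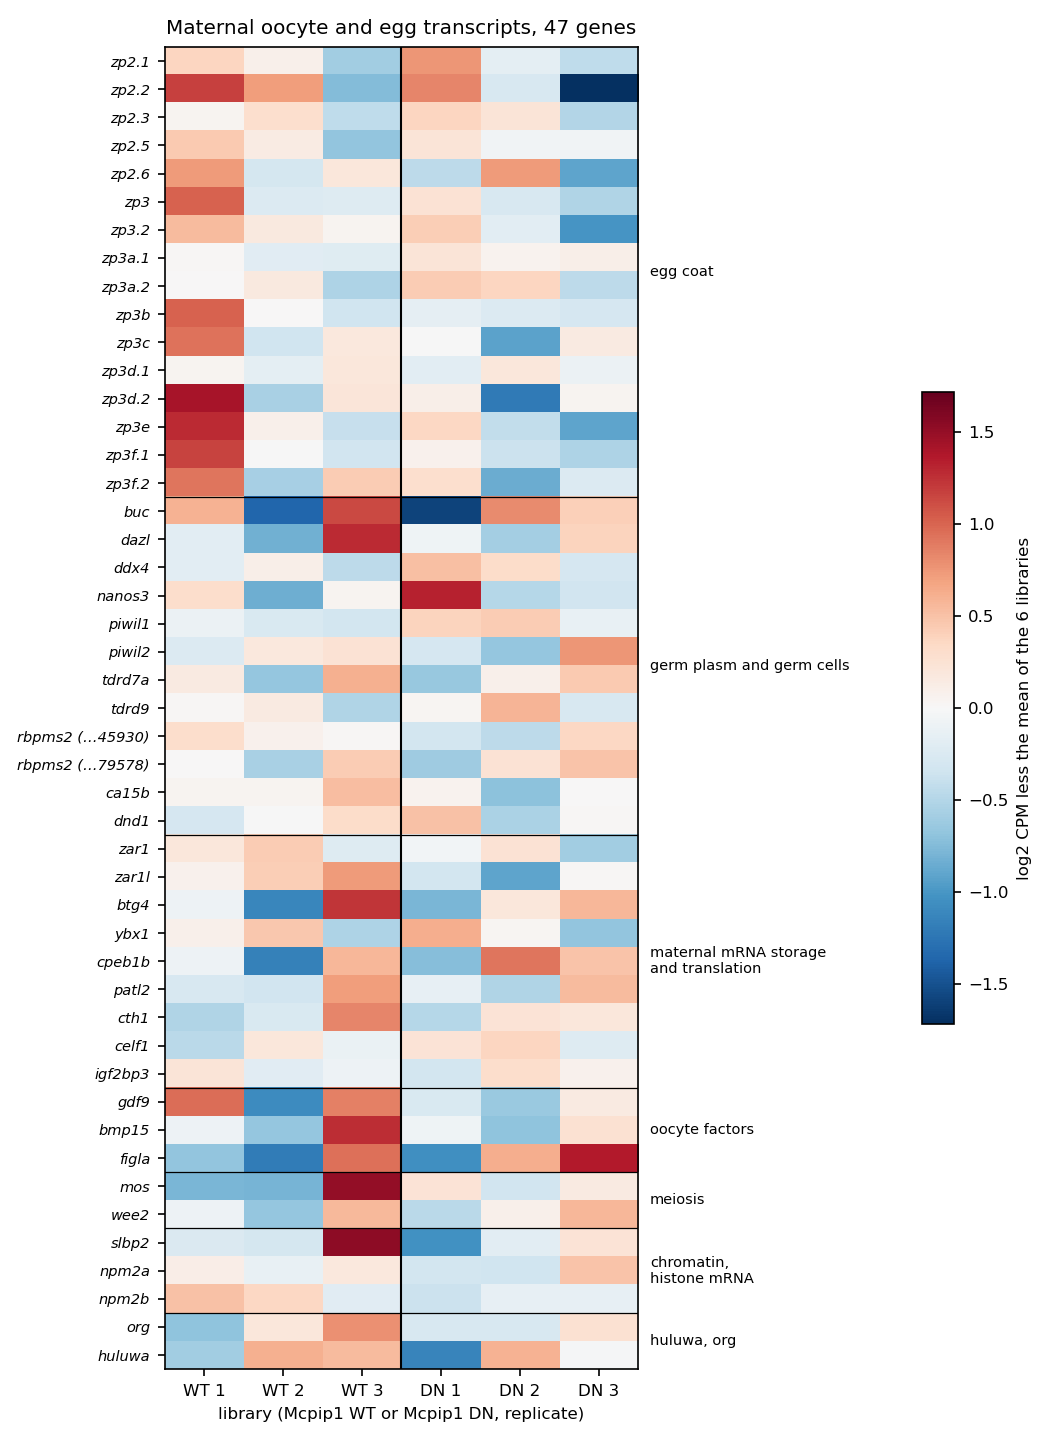
Deviation of each member (rows, by role) in each library (columns, Mcpip1 WT 1 to 3 and Mcpip1 DN 1 to 3), as log2 CPM (reads relative to the library's effective size) less the mean of the 6 libraries; red is above and blue below. All 16 egg coat genes are above their mean in Mcpip1 WT library 1, the least of them, *zp3a.2*, by 0.008. The share of all genes tested above their mean there was not worked out. Of the other 31 members, 12 have their highest value in Mcpip1 WT library 3, against 15.6% of all genes tested.

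The germ plasm is the maternal store of RNA and protein that makes primordial germ cells, and 12 members belong to it or to the germ cells. None was called. Their estimates were spread around 0, with 6 above and 6 below and a median of -0.01. They ran from -0.51 for *nanos3*, a translational repressor needed by primordial germ cells, to 0.41 for *dazl*, an RNA-binding protein that promotes translation in germ cells. The smallest p was that of *piwil1*, a Piwi protein that binds piRNAs to silence transposons. It had 884, 785 and 937 reads in Mcpip1 WT libraries 1, 2 and 3, against 909, 1407 and 899 in Mcpip1 DN libraries 1, 2 and 3. The normalized counts were 896, 804 and 774 in the Mcpip1 WT pools, against 1252, 1302 and 882 in the Mcpip1 DN pools. The groups overlapped by 1 library, since Mcpip1 DN library 3 lay just below Mcpip1 WT library 1. The estimate was -0.47 ± 0.28 (SE), with unadjusted p = 0.116 by edgeR's quasi-likelihood test. The other Piwi gene, *piwil2*, had a fold change of 0.01, with a 95% interval of -0.86 to 0.88.

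*ddx4*, the germ cell RNA helicase Vasa, had normalized counts of 5569.5, 6760.4 and 4605 in the Mcpip1 WT pools, against 9022, 7869.5 and 5152 in the Mcpip1 DN pools. The highest 2 values were both in Mcpip1 DN, but its library 3 was within the range of Mcpip1 WT, and the fold change was -0.38 ± 0.28 (SE). *buc*, which organizes the Balbiani body and gathers germ plasm, was far more uneven. Its normalized counts were 7435, 1909.5 and 10864 in the Mcpip1 WT pools, against 1643, 8630 and 6572 in the Mcpip1 DN pools. The low libraries, Mcpip1 WT library 2 and Mcpip1 DN library 1, fell in different groups, and the estimate of 0.26 had a 95% interval of -1.09 to 1.62. *nanos3* had normalized counts of 668, 302 and 559.95 in the Mcpip1 WT pools, against 1359, 387 and 431 in the Mcpip1 DN pools, so that 1 Mcpip1 DN library lay above all others and the rest overlapped. Without it the estimate was 0.32. For *dazl* it was Mcpip1 WT library 3 that lay above all others, with 427, 271 and 1174 in the Mcpip1 WT pools, against 459.97, 320.1 and 632 in the Mcpip1 DN pools, and without it the estimate was -0.44.

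The remaining germ plasm members had estimates from -0.24 for *tdrd9*, a helicase with a Tudor domain in the piRNA pathway, to 0.41 for *ca15b*, a carbonic anhydrase gene whose mRNA marks germ plasm. Between them were the Tudor gene *tdrd7a* at 0.09, *dnd1*, which shields germ cell mRNAs from microRNAs, at -0.03, and the pair of RBPMS2 genes, RNA-binding partners of Buc, at 0.23 (ENSDARG00000045930) and -0.10 (ENSDARG00000079578). Over 6 of these genes that mark primordial germ cells (*ddx4*, *nanos3*, *dazl*, *dnd1*, *tdrd7a* and *ca15b*), the median was 0.03, with 3 above 0 and 3 below.

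Storage and translation of maternal mRNA was the role of 9 members, with a median of 0.10, 5 above 0 and 4 below, and 1 called. *zar1l*, a paralog of the zygote arrest gene *zar1* that binds mRNA in oocytes, had 879, 1110 and 1703 reads in Mcpip1 WT libraries 1, 2 and 3, against 495, 488 and 877 in Mcpip1 DN libraries 1, 2 and 3. Its normalized counts averaged 1145 ± 258 in the Mcpip1 WT pools, against 665 ± 205 in the Mcpip1 DN pools (SD, n = 3 each). The 3 Mcpip1 WT libraries were all above the 3 Mcpip1 DN libraries, although the lowest of them, at 891, was close to the highest of Mcpip1 DN, at 860.5. The fold change was 0.78 ± 0.33 (SE), with an unadjusted p = 0.035 and an adjusted p = 1.00 in edgeR's quasi-likelihood test. In the same test the call was lost on leaving out any of 4 libraries. The fold change stayed as large without Mcpip1 WT library 2 (0.79, unadjusted p = 0.0541) and without Mcpip1 DN library 1 (0.80, unadjusted p = 0.0577). It was smaller without Mcpip1 WT library 3 (0.61, unadjusted p = 0.123) and without Mcpip1 DN library 2 (0.56, unadjusted p = 0.142).

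Its paralog *zar1* was not called, with 0.25 ± 0.30 (SE) and normalized counts of 1418.5, 1683 and 1062 in the Mcpip1 WT pools, against 1199.5, 1481 and 823 in the Mcpip1 DN pools. The ranges overlapped for most of their width. The difference between the paralogs in their response was not tested. *ybx1*, a Y-box protein that binds and represses maternal mRNA, was not called either, with 34899, 45091 and 22824 in the Mcpip1 WT pools, against 50430, 33702 and 20607 in the Mcpip1 DN pools and a fold change of -0.03. In both groups its library 3 was the lowest.

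The other members of this role were not called. *btg4*, known in the mouse as the adaptor that brings the CCR4-NOT deadenylase to maternal mRNA, had normalized counts of 1262, 616 and 3149 in the Mcpip1 WT pools, against 774, 1531 and 1983 in the Mcpip1 DN pools. *cpeb1b*, which binds cytoplasmic polyadenylation elements, had 914, 431 and 1444.5 in the Mcpip1 WT pools, against 581, 1839 and 1364 in the Mcpip1 DN pools. *cth1*, a CCCH zinc-finger gene of the tristetraprolin family, had 3968.5, 4733 and 10158 in the Mcpip1 WT pools, against 4039, 6719.5 and 6527 in the Mcpip1 DN pools. Their fold changes were 0.23 for *btg4*, -0.44 for *cpeb1b* and 0.13 for *cth1*, and the groups overlapped in each. Without Mcpip1 WT library 3 they were -0.61 for *btg4*, -0.91 for *cpeb1b* and -0.40 for *cth1*. For *cpeb1b*, highest in Mcpip1 DN library 2, the fold change was -0.07 without that library and -0.10 without Mcpip1 WT library 2. The 3 others, *patl2*, a translational repressor in frog oocytes, at 0.10, *celf1*, which binds GU-rich elements, at -0.25, and *igf2bp3*, which stabilizes maternal mRNA, at -0.05, were within 2-fold both ways by their 95% intervals, the widest being -0.78 to 0.97 for *patl2*.

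**Figure D3:**
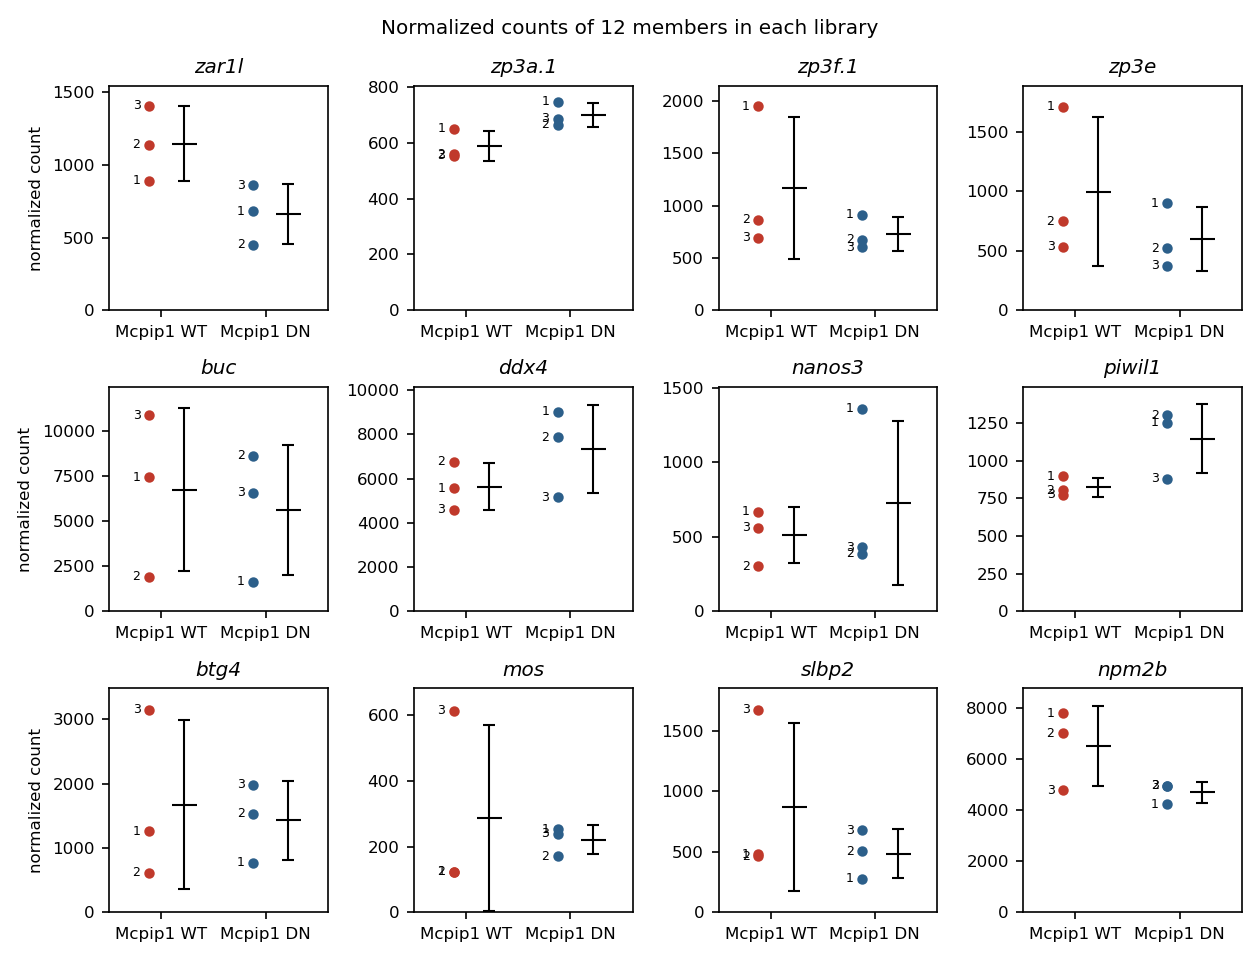
Normalized counts (y axis, linear, from 0) of 12 members in each of 3 Mcpip1 WT and 3 Mcpip1 DN libraries, numbered by replicate; the bars are the mean ± SD of each group. Only *zar1l* and *zp3a.1* have groups that do not overlap, while *zp3e* and *zp3f.1* are highest in Mcpip1 WT library 1, and *buc*, *btg4*, *mos* and *slbp2* in Mcpip1 WT library 3.

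The oocyte makes its own growth factors of the TGF-beta family, *gdf9* and *bmp15*, and the transcription factor *figla*, which in the mouse switches on the zona pellucida genes. None of the 3 was called. *gdf9* had the smallest p, from 227, 53 and 262 reads in Mcpip1 WT libraries 1, 2 and 3, against 71, 81 and 133 in Mcpip1 DN libraries 1, 2 and 3. Mcpip1 WT held both its highest value and its lowest. It had a fold change of 0.72 ± 0.60 (SE), with unadjusted p = 0.252 by edgeR's quasi-likelihood test. *bmp15* had normalized counts of 287, 192 and 738 in the Mcpip1 WT pools, against 291, 189 and 367 in the Mcpip1 DN pools. Its highest value stood in Mcpip1 WT library 3, without which its estimate of 0.53 was -0.24. *figla* had few reads and the lowest estimate of the members, -0.64 ± 0.88 (SE), from 27.4, 18.4 and 88.4 in the Mcpip1 WT pools, against 20.7, 70.3 and 119 in the Mcpip1 DN pools. The groups overlapped in all 3 genes.

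*mos*, the kinase that holds the egg in meiotic arrest through MAP kinase, and *wee2*, the oocyte kinase that inhibits Cdk1, were not called. *mos* had the smaller p, from 122, 120 and 742 reads in Mcpip1 WT libraries 1, 2 and 3, against 184, 184 and 244 in Mcpip1 DN libraries 1, 2 and 3. After scaling, only Mcpip1 WT library 3 was above Mcpip1 DN, and the other 2 Mcpip1 WT libraries were below it. The estimate was 0.38 ± 0.61 (SE), with unadjusted p = 0.549 by edgeR's quasi-likelihood test, and -0.85 without that library. *wee2* had -0.10, with a 95% interval of -0.87 to 0.67.

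Of the chromatin and histone mRNA genes, *npm2b* had the smallest p of all members that were not called. It encodes a nucleoplasmin, the histone chaperone that eggs store. Its reads were 7685, 6841 and 5781 in Mcpip1 WT libraries 1, 2 and 3, against 3073, 5347 and 5041 in Mcpip1 DN libraries 1, 2 and 3. The normalized counts were 7792, 7004 and 4774.5 in the Mcpip1 WT pools, against 4232, 4947 and 4946 in the Mcpip1 DN pools. The first 2 Mcpip1 WT libraries were above all of Mcpip1 DN and the third was inside its range. The fold change was 0.47 ± 0.25 (SE), with unadjusted p = 0.0905 by edgeR's quasi-likelihood test. It was 0.32 without Mcpip1 WT library 1, the highest, and 0.65 without Mcpip1 WT library 3. Its paralog *npm2a* had 0.07. *slbp2*, the oocyte form of the protein that binds the stem-loop of histone mRNAs, had 0.84 ± 0.52 (SE) from normalized counts of 482, 464 and 1676 in the Mcpip1 WT pools, against 278, 505 and 678 in the Mcpip1 DN pools. Here too Mcpip1 WT library 3 was above the rest and the others overlapped, and without it the estimate was -0.04.

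*huluwa*, the maternal membrane protein that sets the dorsal side by stabilizing beta-catenin, and *org*, the oogenesis-related gene, completed the members. *org* had 966, 1760 and 3279 reads in Mcpip1 WT libraries 1, 2 and 3, against 949, 1409 and 1933 in Mcpip1 DN libraries 1, 2 and 3. Mcpip1 WT held its lowest and its highest normalized count, 979 and 2708, and the fold change was 0.28 ± 0.36 (SE), with unadjusted p = 0.44 by edgeR's quasi-likelihood test. *huluwa* had normalized counts of 62.9, 146.4 and 140.4 in the Mcpip1 WT pools, against 42.7, 145 and 94.2 in the Mcpip1 DN pools. In each group library 1 was the lowest, and the fold change was 0.31 ± 0.61 (SE).

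The libraries in which members were high are described here for the egg coat and for the rest. The deviation of a list in a library is the mean over its genes of log2 CPM (reads relative to the library's effective size), less the mean of the 6 libraries. For the egg coat it was 0.69, -0.04 and -0.20 in Mcpip1 WT libraries 1, 2 and 3, against 0.22, -0.21 and -0.46 in Mcpip1 DN libraries 1, 2 and 3. For the other 31 members it was -0.06, -0.30 and 0.47 in the Mcpip1 WT pools, against -0.24, -0.04 and 0.18 in the Mcpip1 DN pools. The egg coat peaked in Mcpip1 WT library 1 and the others in Mcpip1 WT library 3. Of those 31, 12 had their highest value in Mcpip1 WT library 3, against 15.6% of all genes tested. That library also had the most genes with a read, 21337, against 18249 to 20247 in the others. The part of this in the members' values was not tested. In Mcpip1 WT library 2, 9 of the 31 had their lowest value, against 19.3% of all genes tested. A further 8 of the 31 were lowest in Mcpip1 DN library 2, against 12.3% of all genes tested.

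Zygotic genes of the early gastrula were set beside these values. The list holds transcription factors and signals of the mesoderm, endoderm and axis such as *tbxta*, *gsc* and *sox32*. Of its 20 names, 19 had a single identifier, and these 19 genes were tested. Its deviation was 0.07, 0.57 and -0.72 in Mcpip1 WT libraries 1, 2 and 3, against 0.47, -0.09 and -0.30 in Mcpip1 DN libraries 1, 2 and 3. It was thus highest in Mcpip1 WT library 2 and Mcpip1 DN library 1, one of each group. In both of these libraries at once, 18 of the 19 zygotic genes (94.7%) were above their mean, against 30.1% of all genes tested. Of the 31 members outside the egg coat, 15 (48.4%) were below their mean in both, against 30.0% of all genes tested, and 5 (16.1%) were above it in both. Of the 16 egg coat genes, 3 (18.8%) were below and 7 (43.8%) above their mean in both. These 2 libraries were named after their values were seen, and the counts are a description. Enveloping layer markers, for the outermost epithelium, had 0.16, 0.33 and -0.65 in the Mcpip1 WT pools, against 0.50, 0.01 and -0.36 in the Mcpip1 DN pools, with 7 of 8 above their mean in both of those libraries. Yolk syncytial layer markers had 0.83, 0.81 and -0.73 in the Mcpip1 WT pools, against -0.66, -0.10 and -0.16 in the Mcpip1 DN pools. All 8 enveloping layer markers together summed to between 75704 and 145440 normalized counts in Mcpip1 WT libraries and between 99641 and 172550 in Mcpip1 DN libraries. The 4 yolk syncytial layer markers summed to 6388, 6087 and 2525 normalized counts in the Mcpip1 WT pools, against 5616, 3346 and 3441 in the Mcpip1 DN pools. In Mcpip1 DN library 1 one of the 4, *apobb.1*, had 0 reads, which lowers the mean deviation there but hardly the sum. The part of these differences between pools in the members' values was not tested.

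**Figure D4:**
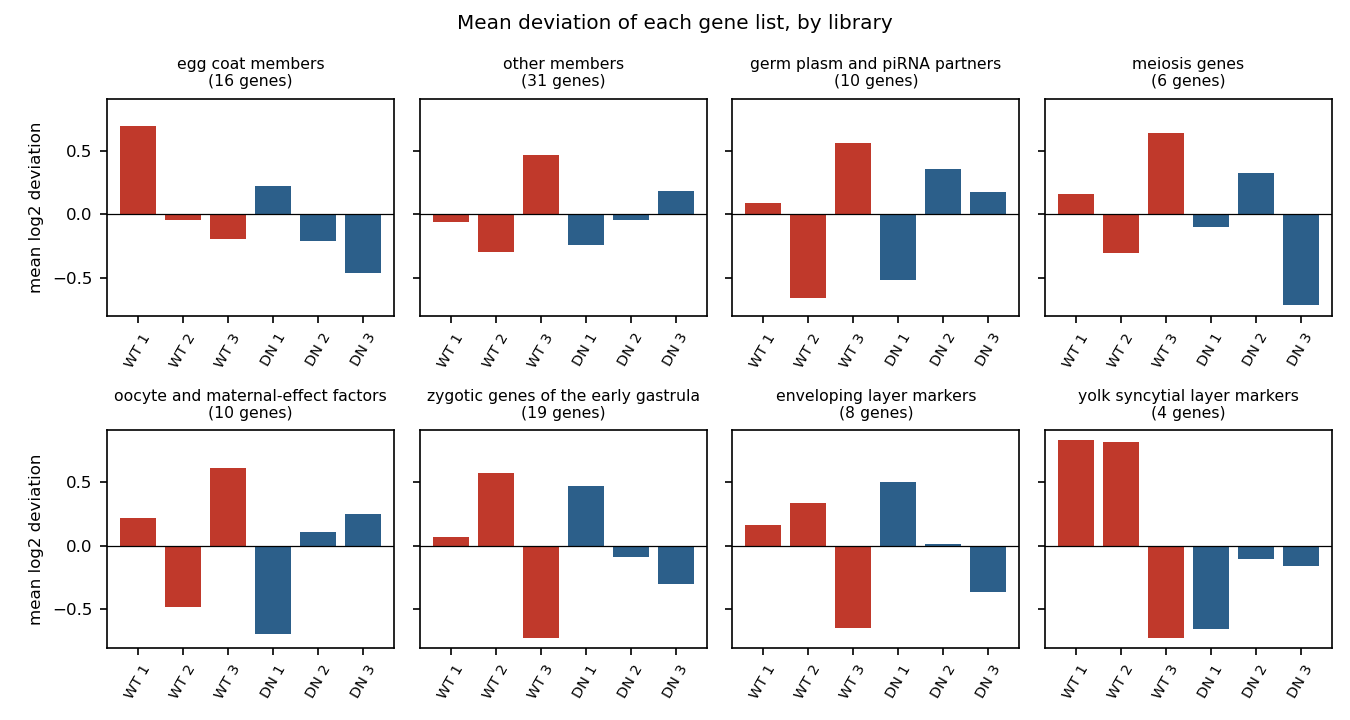
Mean deviation (y axis, log2 CPM less the mean of the 6 libraries) of 8 gene lists in each Mcpip1 WT library (red) and Mcpip1 DN library (blue). The egg coat is highest in Mcpip1 WT library 1 (0.69), the other members in Mcpip1 WT library 3 (0.47), where the zygotic genes are lowest (-0.72).

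The zygotic list itself had a median fold change of 0.06, with 11 genes above 0 and 8 below and 0 called in either direction. Its sign turned with single libraries, with a median of -0.27 (5 above, 14 below) without Mcpip1 WT library 2 and of 0.41 (16 above, 3 below) without Mcpip1 DN library 1. Its smallest p belonged to *cdx4*, a caudal homeobox gene of the posterior body. It had 489, 811 and 284 reads in Mcpip1 WT libraries 1, 2 and 3, against 661, 1224 and 907 in Mcpip1 DN libraries 1, 2 and 3. After scaling, all 3 Mcpip1 WT libraries were lower, as for 4.08% of all genes tested. The fold change was -0.91 ± 0.42 (SE), with unadjusted p = 0.0516 by edgeR's quasi-likelihood test.

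Other maternal and germline genes were read in the same fit. Of 14 names of partners of the germ plasm and the piRNA pathway, 10 had a single identifier in the name table. These 10 genes had 5 fold changes above 0 and 5 below, with a median of 0.07 and 0 called. The median was -0.32 without Mcpip1 WT library 3. Their smallest p was that of *tdrd6*, a Tudor protein that acts with Buc in germ plasm. It had 538, 92 and 1115 reads in Mcpip1 WT libraries 1, 2 and 3, against 85, 2541 and 662 in Mcpip1 DN libraries 1, 2 and 3. The low libraries were the same as for *buc*, 1 of each group, and the fold change was -0.999 ± 0.90 (SE), with unadjusted p = 0.291 by edgeR's quasi-likelihood test. Without Mcpip1 DN library 2, its highest, the fold change turned to 0.44.

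Oocyte translation and maternal-effect factors gave another 10 genes with a single identifier, from 14 names. Of these, 8 were above 0 and 2 below, with a median of 0.30 and 0 called. Without Mcpip1 WT library 3 the median was -0.14, with 3 above 0 and 7 below, and without Mcpip1 DN library 1 it was 0.07. The smallest p was that of *h1m*, the maternal linker histone. It had 37759, 31213 and 54751 reads in Mcpip1 WT libraries 1, 2 and 3, against 17670, 29266 and 32120 in Mcpip1 DN libraries 1, 2 and 3. Its normalized counts averaged 38487 ± 6633 in the Mcpip1 WT pools, against 27642 ± 3623 in the Mcpip1 DN pools (SD, n = 3 each). After scaling, all 3 Mcpip1 WT libraries were above the 3 Mcpip1 DN libraries, as for 3.97% of all genes tested. The fold change was 0.48 ± 0.28 (SE), with unadjusted p = 0.111 by edgeR's quasi-likelihood test. In this list 8 of the 10 genes (80%) were below their mean in both Mcpip1 WT library 2 and Mcpip1 DN library 1. The share was 60% (6 of 10) for the germ plasm and piRNA partners, 33.3% for the meiosis genes tested and 30% over all genes tested. As said above, these 2 libraries were named after their values were seen.

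Meiosis genes were mostly scarce. Of 11 with an identifier, 6 passed the filter and 1 was called higher, against 0.874% of all genes tested. This was *sycp1*, a component of the synaptonemal complex that pairs chromosomes. It had 968, 476 and 630 reads in Mcpip1 WT libraries 1, 2 and 3, against 213, 426 and 347 in Mcpip1 DN libraries 1, 2 and 3. Its normalized counts were 981, 487 and 520.3 in the Mcpip1 WT pools, against 293, 394 and 340.5 in the Mcpip1 DN pools. The gene was higher in all 3 Mcpip1 WT libraries, as were 3.97% of all genes tested. It had a fold change of 0.95 ± 0.37 (SE), with unadjusted p = 0.0253 and an adjusted p = 1.00 in edgeR's quasi-likelihood test. In the same test the call was lost without Mcpip1 WT library 1, where the fold change was smaller (0.56, unadjusted p = 0.171). It was also lost, with a fold change close to that of all libraries, without Mcpip1 DN library 1 (0.85, unadjusted p = 0.0661) or library 3 (0.93, unadjusted p = 0.0581). The 6 tested genes had a median of 0.22, with 4 above 0 and 2 below. Without Mcpip1 WT library 3 it was -0.27 over the 8 genes that then passed the filter.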

How the data were processed

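RNA of 6 zebrafish libraries was poly(A)-selected, built with the Ion Total RNA-Seq Kit v2 and sequenced on an Ion Proton. The authors mapped reads to GRCz11 with STAR 2.7.10a, and unmapped reads with Bowtie2 2.4.4, and deposited raw counts per Ensembl gene from htseq-count. Its version, the strand setting and the Ensembl release are not given in the sources used here, so antisense or overlapping genes are uncertain. Rows of reads on no gene (16.5% to 26.1%) were left out. Groups and replicate numbers came from the sample labels. In R 4.3.3, genes were filtered with filterByExpr (minimum count 10) and compared by edgeR 4.0.16 (TMM, glmQLFit, glmQLFTest, no covariates, Benjamini-Hochberg adjustment over all genes tested). Each standard error was the fold change divided by the root of F, and log2 CPM used a prior count of 2. Symbols came from a name table (28988 IDs with a symbol). DESeq2 1.42.0, other scalings and filters, a replicate block and leaving out each library were alternatives. The edgeR test was checked on data simulated gene by gene from its own fit. That check does not cover shifts that many genes of a library share.

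Members and lists were chosen with earlier results of these data known. Reads in each library, fold change, SE and p were given for members past the threshold, members whose groups do not overlap, the member with the smallest p in each role, and, of other lists, genes past the threshold or else the gene with the smallest p. Further members given by library were chosen after their values were seen. Where a member's estimate is given without its highest library, a shift against the group of that library was bound to follow. Without gene lengths, levels were not compared between genes.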

Additional observations from a re-analysis of the deposited data

How the results depend on the processing

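With other tools, scalings and filters and with the replicate block, 366 of 376 fold changes of members kept their direction and side of the threshold. Without the filter, 4 members were called higher (*zar1l*, *slbp2*, *zp3e* and *zp3f.1*, so 2 of the egg coat), and 1 zygotic gene and 1 germ plasm partner were called lower. The share of all genes called without the filter was not worked out, so the rise in calls is not read as particular to the members. At an adjusted p under 0.05, 0 members and 0 meiosis genes were called. DESeq2's Wald test called 1 zygotic gene lower, *cdx4*, on both sets of genes. The fold change of *zp2.5* was -0.011 with DESeq2 on the same genes, -0.012 with DESeq2 on all genes with a read and -0.011 with DESeq2's size factors. The replicate numbers gave no clear pairing of the libraries. The correlation of same-numbered deviations was 0.006, -0.08 and 0.30, the last being the highest of all. Between differently numbered libraries it ran from -0.36 to 0.29. With the replicate block, 0 meiosis genes were called higher and 2 zygotic genes lower, the fold change of *tdrd6* was -0.20, the number of members called higher stayed 1, and the fold change was -0.064 for *zp2.5*, 0.013 for *ybx1*, -0.062 for *mos* and 0.015 for *dnd1*.

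Leaving out each library in turn, 0 to 4 members were called higher (0 without Mcpip1 DN library 2, 2 without Mcpip1 WT library 2, 3 without Mcpip1 DN library 1, 4 without Mcpip1 WT library 3), and the members' median ran from -0.038 to 0.28. The 4 called without Mcpip1 WT library 3 were *zp3b*, *zp3e*, *zp3f.1* and *npm2b*, and *zar1l* was not among them. Egg coat calls higher ran from 0 to 3, meiosis calls from 0 to 1 higher and from 0 to 1 lower, oocyte factor calls from 0 to 1 higher, and zygotic calls from 0 to 1 higher and from 0 to 2 lower. For these fits, too, the share of all genes called was not worked out, so the counts cannot be set against it. Of the fold changes of members in these fits, 222 of 282 were unaltered in direction and side, and 26 members changed sign at least once. In the egg coat their ranges were -0.39 to 0.30 for *zp2.1*, -0.31 to 0.093 for *zp2.3*, -0.26 to 0.26 for *zp2.5*, -0.0025 to 0.95 for *zp2.6*, -0.081 to 0.70 for *zp3* and -0.038 to 0.16 for *zp3d.1*. In the germ plasm they were -0.27 to 0.71 for *buc*, -0.44 to 0.77 for *dazl*, -0.84 to 0.32 for *nanos3*, -0.26 to 0.53 for *piwil2*, -0.23 to 0.37 for *tdrd7a*, -0.43 to 0.012 for *tdrd9*, -0.36 to 0.13 for RBPMS2 ENSDARG00000079578 and -0.27 to 0.26 for *dnd1*. Among mRNA storage genes they were -0.61 to 0.63 for *btg4*, -0.31 to 0.33 for *ybx1*, -0.33 to 0.43 for *patl2*, -0.40 to 0.37 for *cth1* and -0.20 to 0.087 for *igf2bp3*. For the rest they were -0.24 to 0.87 for *bmp15*, -0.85 to 0.74 for *mos*, -0.47 to 0.18 for *wee2*, -0.10 to 0.59 for *org*, -0.039 to 0.76 for *huluwa*, -0.038 to 1.15 for *slbp2* and -0.084 to 0.39 for *npm2a*. The cause of these changes was not tested.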

Other observations

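Values of 2 further genes and of the untested meiosis genes were picked after they were seen. *ccna1*, the cyclin A of early embryos, had 6064, 3550 and 16036 reads in Mcpip1 WT libraries 1, 2 and 3, against 2909, 18381 and 12476 in Mcpip1 DN libraries 1, 2 and 3, so that its lowest values stood in the same libraries as those of *buc* and *tdrd6*. *lsm14b*, an RNA-binding protein of oocyte mRNA stores, had 6401, 2325 and 10054 reads in the Mcpip1 WT pools, against 1662, 8258 and 5750 in the Mcpip1 DN pools, with the same low libraries. Among the meiosis genes that did not pass the filter, *rec8b* had at most 1 read in any library and *msh5* at most 3. *sycp2* had 0, 1 and 8 reads in the Mcpip1 WT pools, against 25, 17 and 0 in the Mcpip1 DN pools. *hormad1* had 23, 0 and 10 reads in the Mcpip1 WT pools, against 11, 2 and 0 in the Mcpip1 DN pools. *dmc1*, the meiotic recombinase, had 9 reads in Mcpip1 DN library 2 and 0 in every other library, which allows up to 3 reads in each. Of differentiated tissue markers, *hbae1.1* and *neurod1* had 0 reads in all 6 libraries. Others had some, with 12 to 37 reads in a library for *ins*, 12 to 43 for *myhz2* and 0 to 40 for *elavl3*. Of 7 names in that list, 5 had an identifier. All 5 together came to 80, 52 and 66 reads in the Mcpip1 WT pools, against 46, 69 and 72 in the Mcpip1 DN pools.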
